A study of Mus musculus with 8 samples.

Results

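The mRNAs of 40 genes that carry growth factor signals from the cell surface to ERK, Akt, mTOR, AMPK and FoxO were examined in serum-starved NIH3T3 cells that received serum with or without cordycepin. The 40 members were taken by name from the array design, out of 20030 genes with a RefSeq mRNA probe, and comprised 5 receptors, 7 adaptors and exchange factors, 6 members of the Ras to ERK cascade, 7 of the PI3K to Akt branch, 8 of the TSC and mTOR group, 5 genes of AMPK and LKB1, and 2 FoxO factors. They had 63 probes, of which 60 were bright enough to be tested, and every member had at least 1 tested probe. NIH3T3 is an immortalised mouse embryonic fibroblast line, and cordycepin is 3′-deoxyadenosine, a nucleoside analogue made by Cordyceps fungi.

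All cells were grown in 10% serum and then kept in 0.5% newborn bovine serum for 24 h. In 3 arrays the cells then had 20 µM cordycepin in DMSO for 90 min, with serum present during the last 30 min. In 3 arrays they had 0.1% DMSO and the same 30 min of serum, and in 2 arrays no serum was added. These times follow the labels. The paper's figure legend places the 30 min of serum after the 90 min of cordycepin, so the total exposure is uncertain. The protocol in the labels names DMSO for control plates in general, whereas the labels of the 2 arrays without serum name no vehicle, so whether those cells had DMSO is not certain and a part of the vehicle in the comparisons with no serum cannot be told apart. These groups are called cordycepin, serum and no serum below. Cordycepin was not given on its own, so its effect is known here only in the presence of serum, and the 3 groups stand for a single cell line at 1 dose and 1 time. The replicates of the cordycepin and serum groups were independent, per the series' design text.

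Receptor tyrosine kinases for PDGF, FGF, IGF-1 and insulin pass their signal to docking proteins, which bring the Ras exchange factors SOS1 and SOS2 and the lipid kinase PI3K to the membrane. Ras starts the RAF, MEK and ERK kinase cascade, whereas the lipid made by PI3K recruits PDK1 and Akt, which relieve the TSC brake on RHEB and mTORC1 and keep FoxO factors out of the nucleus. AMPK is activated by LKB1 when energy is short and restrains mTORC1. Much of this signalling runs through phosphorylation, which an mRNA array does not measure.

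The promoters of the 5 members whose signal moved most with cordycepin are shown first, since these genes are related pairs or stand beside a close relative: the insulin receptor substrates Irs1 and Irs2, the exchange factors Sos1 and Sos2, and Pik3cb, the gene of the p110 beta catalytic subunit of PI3K. Each line gives the 250 bases before the RefSeq transcription start, 5′ to 3′ on the gene's strand, in build GRCm38.p6, and all 5 genes lie on the minus strand. The windows are chr1:82291440-82291689 for Irs1, chr8:11008930-11009179 for Irs2, chr17:80480454-80480703 for Sos1, chr12:69681853-69682102 for Sos2 and chr9:99140212-99140461 for Pik3cb. Capitals mark an E-box (CACGTG) or a GC box (GGGCGG), searched on both strands.
Irs1: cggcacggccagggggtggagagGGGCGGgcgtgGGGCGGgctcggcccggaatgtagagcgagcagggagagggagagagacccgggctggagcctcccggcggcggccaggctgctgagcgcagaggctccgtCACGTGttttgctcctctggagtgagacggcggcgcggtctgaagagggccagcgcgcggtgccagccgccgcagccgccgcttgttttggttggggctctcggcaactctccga
Irs2: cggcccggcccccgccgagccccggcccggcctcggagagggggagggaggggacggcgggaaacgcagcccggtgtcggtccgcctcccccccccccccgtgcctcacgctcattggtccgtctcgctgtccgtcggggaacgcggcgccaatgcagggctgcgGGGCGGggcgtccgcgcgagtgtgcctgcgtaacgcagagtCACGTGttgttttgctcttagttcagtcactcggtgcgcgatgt
Sos1: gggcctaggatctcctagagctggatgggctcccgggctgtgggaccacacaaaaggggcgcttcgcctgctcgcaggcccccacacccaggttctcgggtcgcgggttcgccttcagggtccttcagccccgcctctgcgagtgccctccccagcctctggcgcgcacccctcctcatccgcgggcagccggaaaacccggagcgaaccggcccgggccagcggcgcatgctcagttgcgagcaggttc
Sos2: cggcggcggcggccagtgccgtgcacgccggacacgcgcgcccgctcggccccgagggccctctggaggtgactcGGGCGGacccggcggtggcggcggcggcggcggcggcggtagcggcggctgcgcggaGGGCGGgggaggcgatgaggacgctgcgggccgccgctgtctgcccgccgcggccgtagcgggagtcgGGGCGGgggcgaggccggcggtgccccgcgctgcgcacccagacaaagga
Pik3cb: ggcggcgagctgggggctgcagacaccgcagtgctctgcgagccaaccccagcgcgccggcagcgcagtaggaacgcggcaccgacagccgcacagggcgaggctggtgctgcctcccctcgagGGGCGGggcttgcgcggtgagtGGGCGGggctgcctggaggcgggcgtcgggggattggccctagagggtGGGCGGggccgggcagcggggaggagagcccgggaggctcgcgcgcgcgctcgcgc

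The Irs1 and Irs2 windows each held 1 E-box, 115 and 44 bases before the start, and the longest run of bases that they shared was the 10 bases GTCACGTGTT around it. For comparison, the longest run shared by the Sos1 and Sos2 windows was 8 bases and held none of the letters searched. Of 27025 genes in the RefSeq table, 6.86% had an E-box in this window, against 4 of the 35 members with a promoter there (Irs1, Irs2, Nras and Rheb). The Sos2 and Pik3cb windows held 3 GC boxes each, and the Sos1 window held none of the letters searched. A GC box was present in 35.4% of all genes and in 26 of 35 members. The other letters searched were the CRE (TGACGTCA), AP-1 (TGANTCA) and FoxO (GTAAACA) motifs, which 1, 2 and 2 of the 35 members held, against 1.77%, 7.82% and 3.54% of all genes. The 5 windows printed were between 70.4% and 82.8% G and C, and the median over all promoters was 52.4%. These matches are descriptions of the letters only. The promoters of Fgfr1, Pdgfrb, Eif4ebp1, Insr and Mapk3 were not analysed here.

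Signals are given as normalised log2 signal, the log2 of the processed intensity after each array's own 75th percentile was subtracted, so that 1 unit is a 2-fold change and values of different probes are not compared as levels. A member passed the test when its brightest probe had an adjusted p under 0.05 in limma, with the adjustment over all 30859 probes tested. The 75th percentile ranged from 302 to 692 between arrays, between 51.1 and 57.1% of an array's probes were well above background, no spot was saturated, and replicate arrays had correlations of 0.992 to 0.995 across probes. All 10 fibroblast markers were well above background on all 8 arrays. Of the markers of other cell types, 2 of 5 epithelial (Krt14 and Cldn7), 3 of 4 endothelial (Pecam1, Kdr and Tek) and 2 of 3 haematopoietic markers (Cd68 and Itgam) were also above background on all 8. Cdh1, Krt5 and Cdh5 were above it on none, Epcam on 1 and Ptprc on 3.

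What cordycepin changed among the pathway members was examined by comparing cordycepin with serum. The docking protein genes Irs1, Irs2 and Gab1, the exchange factor gene Sos2, the lipid kinase gene Pik3cb and the mTORC1 gene Rptor fell, and Sos1 rose. The largest of these changes was the 3.00-fold drop of Pik3cb, and the other 6 lay between 1.31-fold and 1.92-fold. Thus 6 of 40 members (15%) were lower, where 8.13% of 13421 mRNA genes and 7.71% of all probes tested were lower, and 1 of 40 (2.5%) was higher, where 6.29% of mRNA genes and 11.7% of all probes were higher. Among the mRNA genes brighter than the median, to which 26 of the 40 members belonged, 6.97% were lower and 1.88% higher. Irs1, Irs2 and Rptor were among these 26 members. Pik3cb, Sos1, Sos2 and Gab1 were dimmer, so the shares of the brighter genes are not a background for them. The median change of the members was 0.02 on the log2 scale, beside 0.05 for mRNA genes and 0.09 for all probes, and 22 of the members had a change above 0. With each array centred on 8 spike-in probes in place of the 75th percentile, Pik3cb alone passed (Irs2 -0.98, adjusted p = 0.54, and Sos1 0.88, adjusted p = 0.72). Such centring moves the changes of all members by 1 shared amount, here small (Pik3cb from -1.58 to -1.65). That the 7 changes kept their direction is therefore no separate check.

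**Figure D1:**
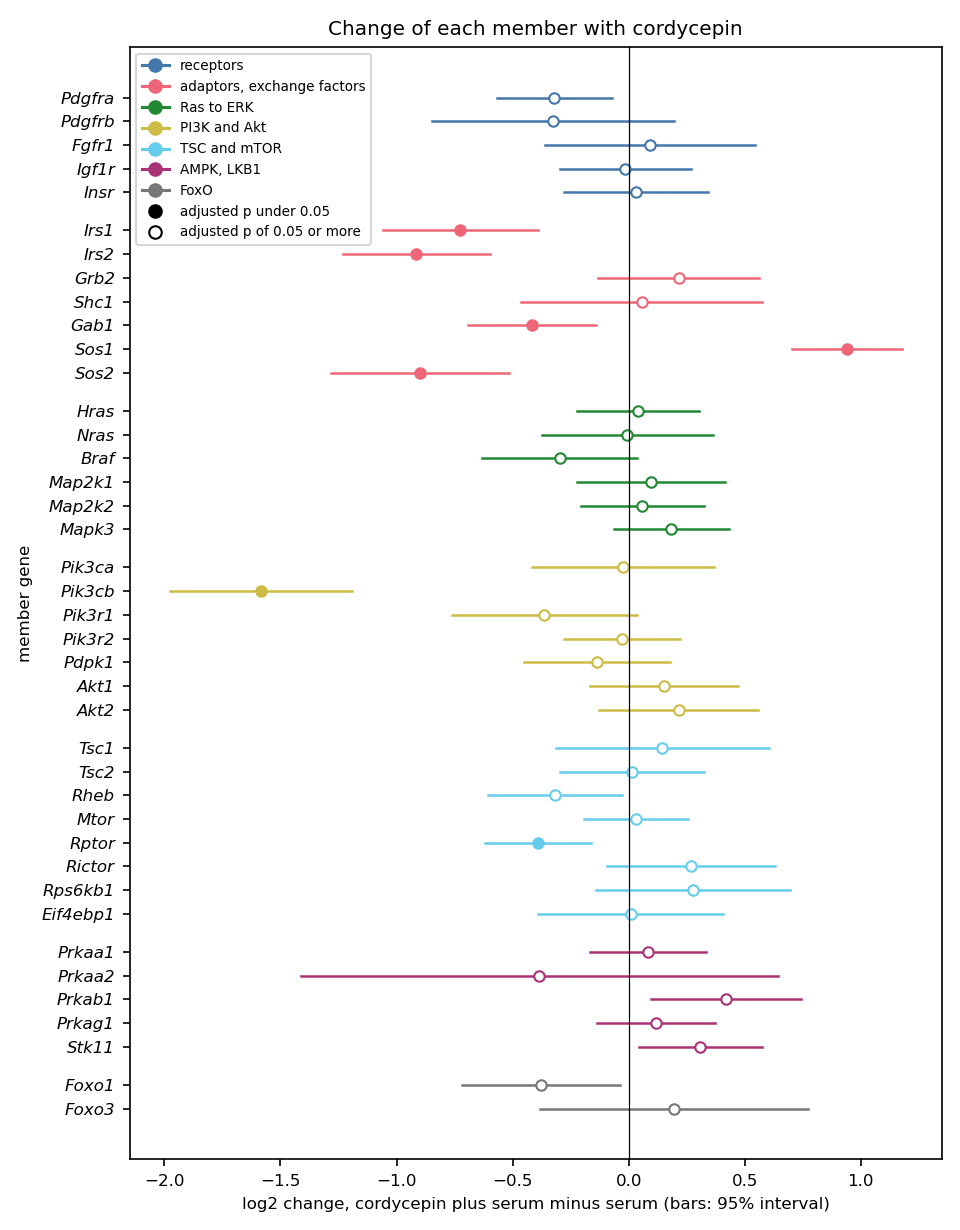
Log2 change of the brightest probe of each of the 40 members, cordycepin minus serum (3 arrays each), grouped by role, with 95% intervals; filled points have an adjusted p under 0.05. Of the 7 filled points 5 are adaptors or exchange factors, and Pik3cb stands farthest from 0 at -1.58. Over all mRNA genes 8.13% were lower and 6.29% higher, and none of 12 other adaptor genes, not drawn, passed.

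None of the 5 receptors passed the test. Pdgfra, the PDGF receptor alpha, read 5.55, 5.47 and 5.52 on the serum arrays and 5.07, 5.32 and 5.19 on the cordycepin arrays. The cordycepin arrays were thus all below the serum arrays, with a log2 change of -0.32 ± 0.11 (SE) and an adjusted p of 0.077. Pdgfrb, its partner receptor, had the same size of change (-0.33 ± 0.23), but its arrays overlapped and the adjusted p was 0.37. Fgfr1, Igf1r and Insr, the receptors for FGF, IGF-1 and insulin, had changes between -0.01 and 0.09.

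Among the 7 adaptors and exchange factors 5 passed, 4 lower and 1 higher, where 8.13% of mRNA genes were lower and 6.29% higher. None of 12 other adaptor genes tested, from the wider list described below, passed in either direction. The count is therefore not given as a trait of adaptors as a class. Irs2, which docks PI3K to the activated insulin and IGF-1 receptors, read 4.45, 4.32 and 4.44 with serum and 3.50, 3.64 and 3.33 with cordycepin. All cordycepin arrays lay below all others, and Irs2 fell by 0.91 ± 0.14 on the log2 scale (1.89-fold, adjusted p = 0.0020). Irs1, the other insulin receptor substrate in this list, read 4.43, 4.18 and 4.03 with serum and 3.36, 3.67 and 3.44 with cordycepin. It fell by 0.73 ± 0.14 (1.65-fold, adjusted p = 0.0088), again with no overlap. The second Irs1 probe, nearer to the 5′ end of the transcript, had a change of -0.67 ± 0.26 that did not pass (adjusted p = 0.12). A probe for an unnamed transcript on the opposite strand within 10 kb of the Irs1 probe had a change of -0.72 ± 0.35 (adjusted p = 0.21).

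The 2 SOS genes, which encode the factors that load Ras with GTP, moved in opposite directions. Sos2 read 1.32, 1.50 and 1.32 with serum and 0.15, 0.79 and 0.50 with cordycepin, a fall of 0.90 ± 0.17 (1.86-fold, adjusted p = 0.0060). Sos1 read -2.13, -2.08 and -2.17 with serum and -1.13, -1.22 and -1.20 with cordycepin, a rise of 0.94 ± 0.10 (1.92-fold, adjusted p = 0.00037). Neither gene's arrays overlapped between these groups, and Sos1 had the tightest replicates of the pair. Their log2 changes differed by 1.84, a value set out after both were seen and given with no test. Each gene had 1 tested probe. The probes lay at base 8639 of the Sos1 transcript (mm9 chr17:80793312-80793371) and base 5427 of the Sos2 transcript (mm9 chr12:70684873-70684932), and an alignment without gaps matched at most 21 of their 60 bases.

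Gab1, a docking protein for the phosphatase SHP2 and for PI3K, read -0.71, -0.68 and -0.77 with serum and -1.08, -1.34 and -0.99 with cordycepin. Its fall of 0.42 ± 0.12 (1.34-fold) passed at an adjusted p of 0.044. This call rested on the full set of arrays: leaving out any 1 of the 8 arrays except cordycepin replicate 3 gave an adjusted p between 0.067 and 0.12. Shc1 and Grb2, which link receptors to SOS, had changes of 0.06 and 0.21 and overlapping arrays. A second, dimmer Grb2 probe did pass, with a rise of 0.55 ± 0.12 (adjusted p = 0.012), from values between -0.44 and -0.25 with serum to values between 0.06 and 0.27 with cordycepin.

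**Figure D2:**
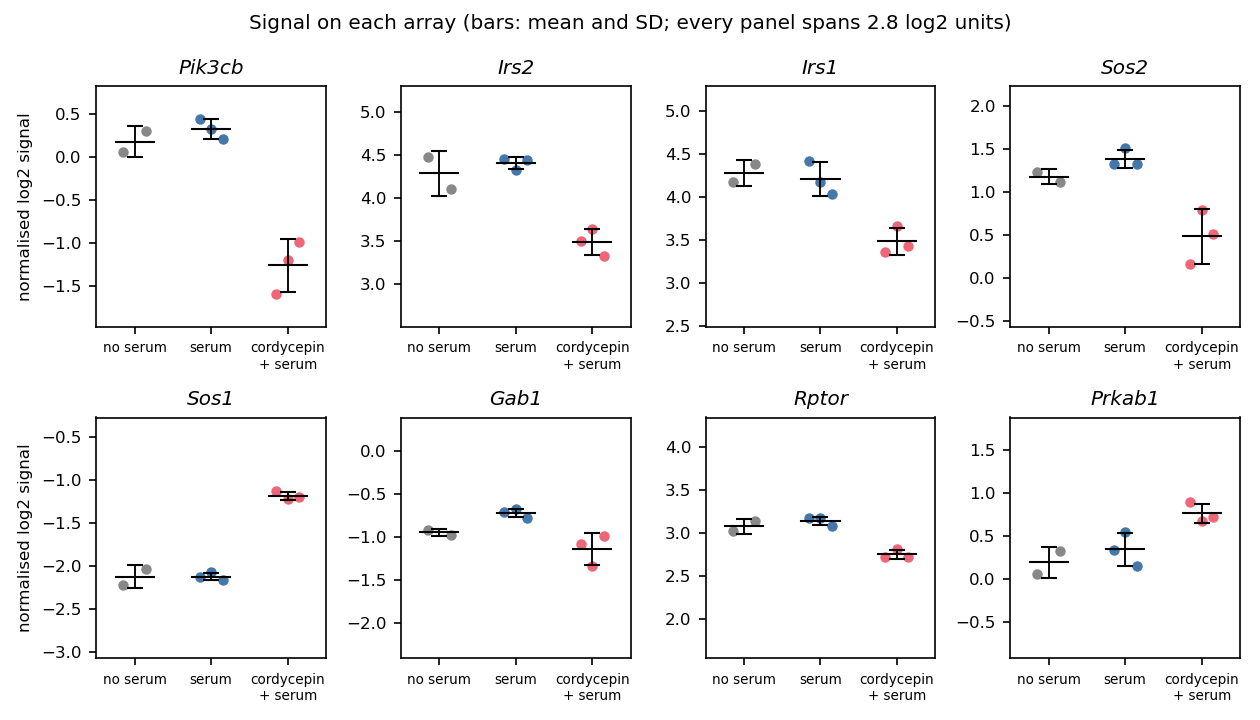
Normalised log2 signal of 8 members on each array, with the mean and SD of each group (no serum n = 2, serum n = 3, cordycepin n = 3); every panel spans the same range. In Pik3cb, Irs2, Irs1, Sos2, Gab1 and Rptor the 3 cordycepin arrays lie below all other arrays, and in Sos1 and Prkab1 they lie above them.

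None of the 6 members between Ras and ERK passed. The Ras genes Hras and Nras had changes of 0.04 ± 0.11 and -0.01 ± 0.16, and the MEK genes Map2k1 and Map2k2 had changes of 0.10 ± 0.14 and 0.06 ± 0.11. Mapk3, which encodes ERK1, had a change of 0.18 ± 0.11. Braf, a kinase that activates MEK, had the lowest value of the group at -0.30 ± 0.15 (adjusted p = 0.21). The 95% intervals of 5 of the 6 genes lay within 0.5 log2 units of 0, so that in these a change of more than that size would fall outside the interval, and the sixth was Braf, with an interval from -0.63 to 0.04.

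Of the 7 members between PI3K and Akt, Pik3cb alone passed. It read 0.44, 0.33 and 0.21 with serum, 0.05 and 0.31 without serum, and -1.59, -1.20 and -0.98 with cordycepin. The 2 groups without cordycepin overlapped each other and lay more than 1 log2 unit above every cordycepin array. Pik3cb fell by 1.58 ± 0.17 (95% interval -1.98 to -1.19, adjusted p = 0.00035), and it was the 1 member that also met the larger threshold of a log2 change of at least 1. Beside that rule 2.99% of all probes were lower and 7.56% higher. Its probe lay at base 4501 of the transcript, at mm9 chr9:98939114-98939173.

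Pik3ca, the gene of the other broadly expressed catalytic subunit, p110 alpha, read 0.07, -0.50 and -0.08 with serum and -0.32, 0.03 and -0.29 with cordycepin. Its change was -0.02 ± 0.17, with an interval from -0.42 to 0.37. The changes of Pik3ca and Pik3cb differed by 1.56 log2 units, a description made after both were seen. The regulatory subunits Pik3r1 and Pik3r2 had changes of -0.36 ± 0.17 and -0.03 ± 0.11, of which the first did not overlap between groups but had an adjusted p of 0.20. Pdpk1, the kinase that phosphorylates Akt, had a change of -0.14 ± 0.14. Akt1 and Akt2 had changes of 0.15 ± 0.14 and 0.22 ± 0.15. The array file places the brightest Akt2 probe on chromosome 11, together with a second probe that overlaps it and had a change of 0.14 ± 0.15. It places the dimmest Akt2 probe on chromosome 7, and that probe had a change of 0.09 ± 0.24. Which genomic copy each of these probes matches was not checked.

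In the TSC and mTOR group Rptor passed and 7 genes did not. Rptor encodes raptor, the subunit that presents substrates to mTORC1. It read 3.17, 3.17 and 3.08 with serum and 2.71, 2.81 and 2.72 with cordycepin, without overlap, and fell by 0.39 ± 0.10 (1.31-fold, adjusted p = 0.027). Leaving out any 1 of the serum arrays, or cordycepin replicate 1 or 3, gave an adjusted p between 0.063 and 0.10. A second, dimmer Rptor probe, designed on a cDNA record, had a change of -0.60 ± 0.21 (adjusted p = 0.095). Rictor, the subunit that defines mTORC2, had a change of 0.27 ± 0.16, and Mtor itself one of 0.03 ± 0.10 with some of the closest replicates among the members. Tsc1 and Tsc2, the brake on mTORC1, had changes of 0.14 ± 0.20 and 0.01 ± 0.13. The mTORC1 substrates Rps6kb1 and Eif4ebp1 had changes of 0.28 ± 0.18 and 0.01 ± 0.17. Rheb, the GTPase that activates mTORC1, had a change of -0.32 ± 0.13 without overlap (adjusted p = 0.13).

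None of the 4 AMPK subunits, nor Stk11, which encodes LKB1, passed in this comparison. Prkab1, a regulatory beta subunit, read 0.33, 0.54 and 0.15 with serum and 0.89, 0.67 and 0.72 with cordycepin. All cordycepin arrays lay above all serum arrays, but the change of 0.42 ± 0.14 had an adjusted p of 0.077. Stk11 had the same pattern with a change of 0.31 ± 0.12 (adjusted p = 0.11). The catalytic subunit Prkaa1 and the gamma subunit Prkag1 had changes of 0.08 ± 0.11 and 0.12 ± 0.11. The other catalytic subunit, Prkaa2, was dim, being well above background on 6 of 8 arrays, and its interval from -1.41 to 0.64 was the widest of the members.

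Foxo1, a transcription factor that Akt holds in the cytoplasm, gave different calls by probe. Its brightest probe read 1.47, 1.45 and 1.48 with serum and 0.78, 1.33 and 1.17 with cordycepin, a change of -0.38 ± 0.15 that did not pass (adjusted p = 0.12). The probe nearer the 3′ end of the transcript read 1.19, 1.19 and 0.98 with serum and 0.18, 0.40 and 0.45 with cordycepin, and fell by 0.78 ± 0.12 (adjusted p = 0.0023). Neither probe's arrays overlapped. With the mean of all tested probes of a gene in place of the brightest, Foxo1 passed and 7 of 40 members were lower. Foxo3 had a change of 0.19 ± 0.25.

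For 32 of the 33 members that did not pass, the 95% interval lay within 1 log2 unit of 0, the exception being Prkaa2, and for 16 it lay within 0.5. Their changes ranged from -0.39 to 0.42. At an unadjusted p under 0.05 there were 12 members, 9 lower and 3 higher, where 13.3% of mRNA genes were lower and 12.1% higher. More than 1 tested probe was available for 14 members. The probes of a gene differed in their change by 0.02 to 0.56 log2 units, with 8 genes under 0.2. Among these 8 were Rheb, whose tested probes overlap, and Akt2, which has a pair of overlapping probes. Overlapping probes are no separate measurements, so the count of 8 is not a count of independent agreement. The widest range was that of Rps6kb1, from -0.28 at the most 5′ probe to 0.28 at the brightest, and none of its 3 probes passed.

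**Figure D3:**
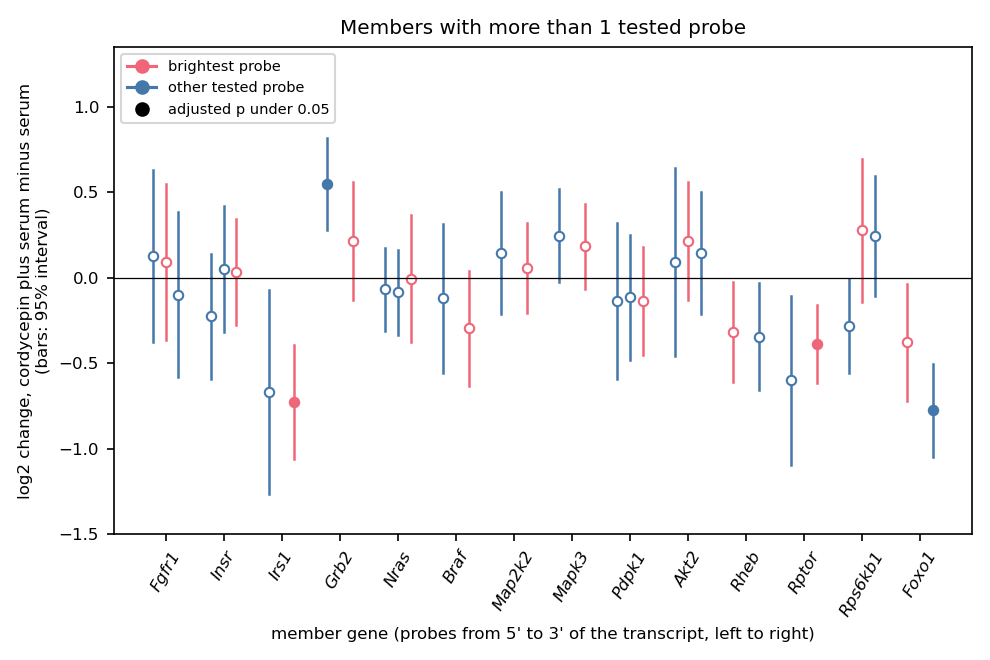
Log2 change with cordycepin, with 95% intervals, for each tested probe of the 14 members that had more than 1, ordered from 5′ to 3′ along the transcript. The probes of Irs1, Nras, Braf, Pdpk1, Rheb, Rptor and Foxo1 all lie below 0, and the probes of Fgfr1, Insr and Rps6kb1 lie on both sides of 0.

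What 30 min of serum changed among the members was examined by comparing serum with no serum. No member passed in limma in either direction, and 1 of 40, Rheb, was higher at an unadjusted p under 0.05, where 3.96% of mRNA genes were higher and 2.35% lower. Across the array 1.24% of mRNA genes were higher and 0.127% lower, and 1.17% and 1.16% of all probes. The members' changes ranged from -0.30 to 0.50 with a median of 0.01. The 95% interval lay within 1 log2 unit of 0 for 39 members and within 0.5 for 26. The exception was again Prkaa2. With a log2 change of at least 1 asked for as well, no member passed in either direction, where 0.878% of all probes were higher and 0.898% lower.

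Rheb read 1.85 and 2.11 without serum, 2.43, 2.65 and 2.34 with serum, and 2.17, 2.19 and 2.10 with cordycepin. The serum arrays were thus the highest of the 3 groups and overlapped neither of the others. The change with serum was 0.50 ± 0.14, with an adjusted p of 0.16. The other tested Rheb probe covers an overlapping stretch of the transcript and is no separate measurement.

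**Figure D4:**
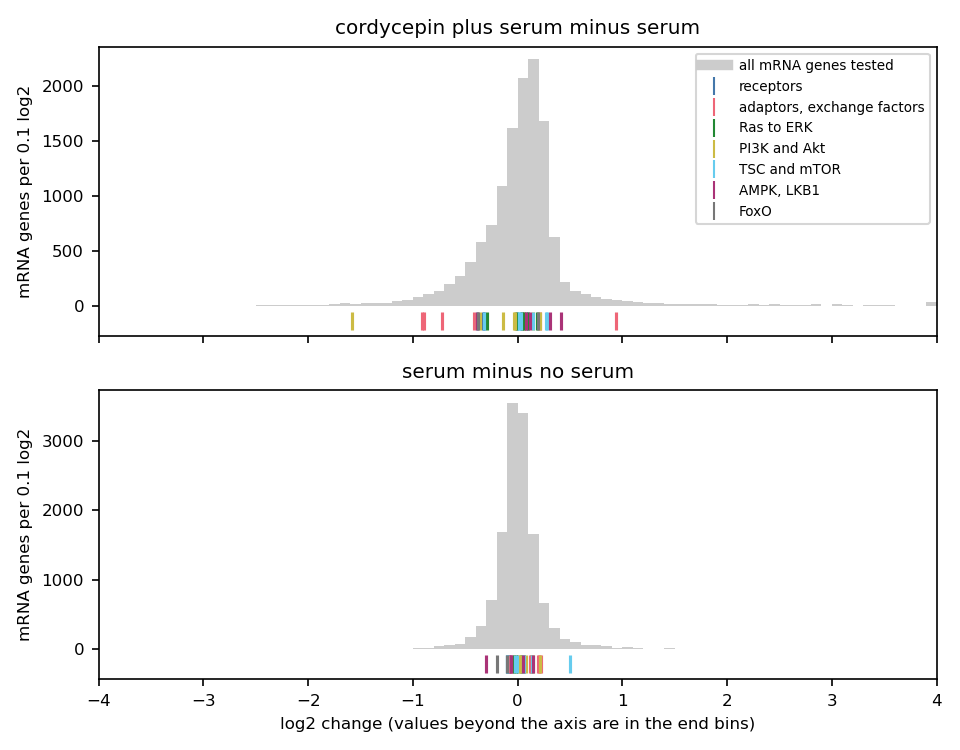
Histograms of the log2 changes of 13421 mRNA genes (brightest probe of each) with cordycepin and with serum, with a tick under the axis for each of the 40 members, coloured by role. With cordycepin 5 ticks lie beyond 0.7 log2 units from 0 (Pik3cb, Irs2, Sos2 and Irs1 below, Sos1 above), and with serum none lies beyond 0.5.

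Cordycepin was also compared with no serum, which uses the same 3 cordycepin arrays, so that the values below are set beside the first comparison and add no independent arrays on the cordycepin side. In this comparison 4 of 40 members (10%) were lower, where 5.57% of mRNA genes and 6.15% of all probes were, and 2 (5%) were higher, where 5.41% and 9.07% were. Pik3cb fell by 1.44 ± 0.19 (adjusted p = 0.0016), Irs2 by 0.80 ± 0.15 (adjusted p = 0.0094), Irs1 by 0.79 ± 0.16 (adjusted p = 0.012) and Sos2 by 0.69 ± 0.19 (adjusted p = 0.041). Sos1 rose by 0.94 ± 0.11 (adjusted p = 0.00099). The same 5 genes had passed in the first comparison, and in all of them the changes between serum and no serum were between -0.07 and 0.21. An unadjusted p under 0.05 was found for 9 members, 7 lower and 2 higher, where 10.6% of mRNA genes were lower and 10.7% higher. With a log2 change of at least 1 asked for as well, Pik3cb remained and no member was higher, where 3.08% of all probes were lower and 6.46% higher.

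Prkab1 rose by 0.57 ± 0.16 against no serum (adjusted p = 0.045), from 0.06 and 0.32 without serum. Leaving out any of 6 arrays, all but serum replicates 2 and 3, gave an adjusted p between 0.069 and 0.27. Sos2 likewise lost its call against no serum without any of 6 arrays, all but cordycepin replicate 2 and serum replicate 2 (adjusted p between 0.062 and 0.20). The calls of Irs1 and Irs2 were each lost without 1 array of the no serum group, replicate 2 for Irs1 (adjusted p = 0.098) and replicate 1 for Irs2 (adjusted p = 0.079). Gab1 and Rptor had changes of -0.20 ± 0.13 and -0.33 ± 0.11 here, with adjusted p of 0.39 and 0.096. The calls against no serum also depended on the probe. The second Irs1 probe had a change of -0.48 ± 0.29 (adjusted p = 0.33). The Foxo1 probe nearer the 3′ end fell by 0.73 ± 0.13 (adjusted p = 0.0071). With the mean of all tested probes of a gene, 5 members were lower: Irs1 lost its call, and Foxo1 and Rptor passed.

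**Figure D5:**
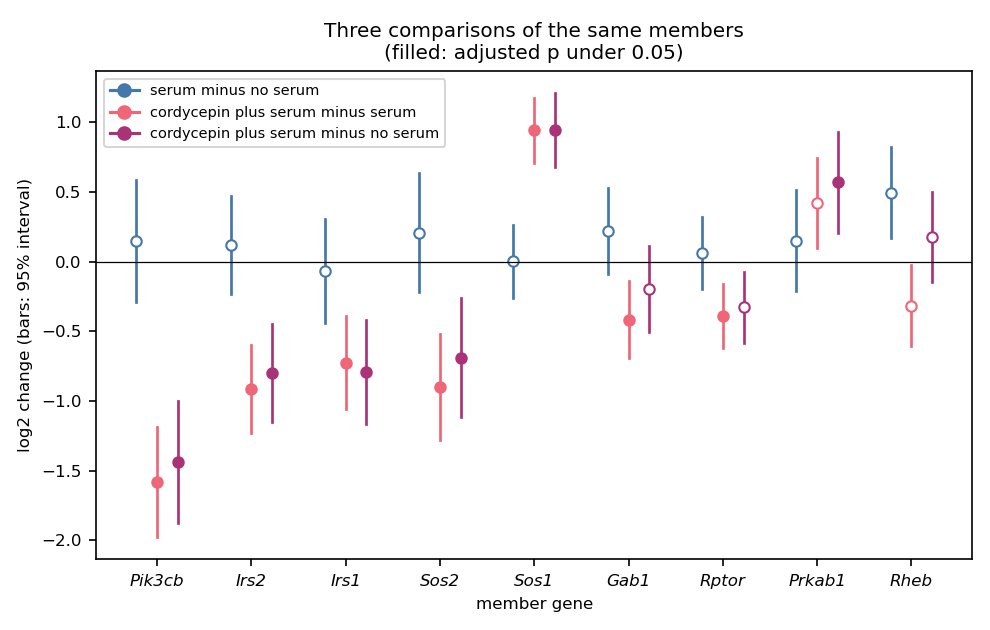
Log2 changes with 95% intervals of 9 members in the comparisons of serum with no serum, cordycepin with serum and cordycepin with no serum; filled points have an adjusted p under 0.05. The last 2 comparisons share the cordycepin arrays, and no point for serum with no serum is filled.

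Another 103 tested genes of the same pathways, from a list of 113 drawn up by function, gave a wider view. With cordycepin 9 of them fell (8.74%), close to the 8.13% of all mRNA genes. None rose in limma, where 6.29% of mRNA genes did, and 3 were higher at an unadjusted p under 0.05, where 12.1% of mRNA genes were. Among the mRNA genes brighter than the median, 6.97% fell and 1.88% rose. How many of the 103 belonged to that brighter part was not counted. By role, 2 of 12 other receptors, none of 12 adaptors, 1 of 18 Ras to ERK genes, 2 of 15 PI3K to Akt genes, 2 of 27 mTOR genes, 1 of 13 AMPK genes and 1 of 6 FoxO genes were lower. The 3 with the largest falls were Sgk1, Ddit4 and S1pr2. Sgk1, a kinase activated by PDK1 and mTORC2, read 5.05 and 5.03 without serum, 6.25, 5.81 and 5.98 with serum, and 3.58, 4.14 and 3.80 with cordycepin, so that no groups overlapped. It rose by 0.97 ± 0.19 with serum (adjusted p = 0.044) and fell by 2.18 ± 0.17 with cordycepin (adjusted p = 7.8e-05). Ddit4, an inhibitor of mTORC1 known as REDD1, fell by 0.93 ± 0.20 with cordycepin (adjusted p = 0.012). S1pr2, a receptor for the serum lipid sphingosine 1-phosphate, fell by 0.91 ± 0.13 (adjusted p = 0.0015).

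With serum 2 of the 103 genes (1.94%) rose, Sgk1 and Prkab2, where 1.24% of mRNA genes did. None fell in limma, where 0.127% of mRNA genes did, and 1 was lower at an unadjusted p under 0.05. Prkab2 is the second beta subunit of AMPK. It read 1.55 and 1.44 without serum, 3.07, 3.46 and 3.13 with serum, and 2.60, 2.19 and 2.49 with cordycepin, which places the cordycepin arrays between the other groups with no overlap. It rose by 1.73 ± 0.17 with serum (adjusted p = 0.0022) and was 0.80 ± 0.15 lower with cordycepin than with serum (adjusted p = 0.0074). Prkab1, its paralogue among the members, had changes of 0.15 ± 0.16 and 0.42 ± 0.14 in the same comparisons, neither of which passed. Against no serum, 7 of the 103 genes (6.8%) were lower with cordycepin, where 5.57% of mRNA genes were, led by Ddit4 (-1.24 ± 0.22), Sgk1 (-1.20 ± 0.19) and S1pr2 (-0.84 ± 0.14). Prkab2 was higher (0.93 ± 0.17), the only 1 of the 103 (0.971%), where 5.41% of mRNA genes were.

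Some markers of other cell types moved with cordycepin beside these genes. Of all probes tested, 11.7% were higher and 7.71% lower against serum. Against no serum these shares were 9.07% and 6.15%. At a log2 change of at least 1, 7.56% of all probes were higher against serum. Of 3 haematopoietic markers, Ptprc was near background, whereas Cd68 read 2.90 to 3.30 on the cordycepin arrays and -0.16 to 0.46 on the other 5, and Itgam read 4.48 to 4.82 and 3.82 to 4.25. The log2 of the summed signal of the 3 markers was 4.90 to 5.24 with cordycepin, 4.02 to 4.26 with serum and 3.92 to 4.35 without serum. Cd68 rose by 3.02 ± 0.21 (adjusted p = 4.8e-05) and Itgam by 0.62 ± 0.15 (adjusted p = 0.022) against serum. The epithelial marker Krt14 rose by 0.51 ± 0.14 (adjusted p = 0.033), reading -2.99 to -2.92 with cordycepin, -3.71 to -3.23 with serum, and -3.21 and -3.06 without serum. The endothelial marker Pecam1 read -2.76 to -2.57 with cordycepin and -2.34 to -2.01 on the other 5 arrays, with a change of -0.38 ± 0.12 against serum (adjusted p = 0.063) and a fall of 0.48 ± 0.14 against no serum (adjusted p = 0.0496). With cordycepin, serum and no serum in that order, the log2 summed signal of the 5 epithelial markers was -1.82 to -1.69, -2.02 to -1.88 and -1.91 to -1.84. That of the 4 endothelial markers was 2.68 to 2.86, 2.53 to 3.02 and 2.65 to 2.89. The summed signal of the 10 fibroblast markers was 11.4 to 11.7, 11.2 to 11.4 and 11.1 to 11.3 in the same order. The part of other cell types in the members' changes was not tested.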

How the data were processed

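RNA of serum-starved NIH3T3 cells was labelled with Cy3 and hybridised to 1-colour Agilent mouse arrays, 8 in all. Whether the 8 arrays shared a slide was not examined. The deposited files give intensity per spot on a linear scale, which the authors extracted with Feature Extraction 10.7.3.1, a program that subtracts a local background and flags outlier spots. The study's methods name limma and no normalisation. Probe positions refer to mm9, and exon or UTR annotation was not used here.

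Processed signals were converted to log2, control and flagged spots were left out, the spots of a probe were averaged, and the 75th percentile of each array was subtracted. A shift shared by most transcripts would therefore not be seen. A probe was tested if all arrays of some group showed it well above background (30859 of 55681). Groups came from the sample titles. Group means were compared with limma 3.58.1 in R 4.3.3, with all 8 arrays in 1 fit, no covariate, two-sided p-values and Benjamini-Hochberg adjustment over all probes tested. Errors beside changes are standard errors of the fit. Saturation did not limit any spot, and the number of arrays limits the precision. The brightest probe represented a gene. Full statistics went to members that passed, up to 10 in each comparison, and up to 3 genes in each direction of the other pathway list were named. The members, lists and tests were chosen with earlier results of these data known. The fit was tested on simulated data. Alternatives covered background correction, normalisation, the filter, blocks, call rules, probe summary, an intensity trend and each array left out. Promoters came from a RefSeq table of GRCm38.p6, whose coordinates were not combined with those of the array. 1 marker gene of these lists is not reported here.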

Additional observations from a re-analysis of the deposited data

How the results depend on the processing

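Across 20 alternatives the 13 changes of members that passed gave 260 values, of which 183 stayed past the threshold, 77 did not and none changed sign. Settings that altered only the call rule, the filter, the intensity trend or the groups fitted leave the change itself as it was. The same holds for leaving out an array of the group not compared, so the sign could not change in any of these. Pik3cb passed in all 20 in both comparisons that hold the cordycepin arrays. In the comparison with serum, Irs1, Irs2, Sos1 and Sos2 each passed in 17, Rptor in 9 and Gab1 in 5. For members lower with cordycepin than with serum (6), centring on 8 spike-in probes, the threshold of a log2 change of at least 1, and that threshold with an unadjusted p each left 1 gene. For members higher (1) these settings left 0, and an intensity trend gave 2. Against no serum, members lower (4) became 1 under each of the same 3 settings and 2 with no filter on dim probes, and members higher (2) became 0 under those 3 and 1 with no filter, the array row as a block, or only the 2 groups compared. Leaving out 1 array at a time gave 4 to 5 lower and 1 higher with cordycepin, 2 to 5 lower and 1 to 2 higher against no serum, and 0 with serum. The 2 lower were found without either no serum replicate. Every setting gave 0 members with serum. The replicate numbers did not pair the arrays (correlation of deviations -0.175 to 0.227 for the same number, -0.318 to 0.322 for others). With the replicate number as a block, 4 members were lower and 1 higher with cordycepin, and 3 lower and 1 higher against no serum, the lost calls being Gab1, Rptor, Sos2 and Prkab1. The array row as a block gave the same counts and lost the same calls. The rows were not balanced between the cordycepin and serum arrays. Under spike-in centring the median of all probes' changes was -0.35 with serum and -0.33 against no serum, and 39 of the 40 members then had a serum change below 0. The sign of the members' median change with cordycepin was negative under quantile normalisation (-0.03) and spike-in centring (-0.04), so no direction of the list as a whole is given. The cause of these shifts was not tested. The smallest change that passed was -0.39, and the median distance from a member's change to the bound of its 95% interval was 0.32 with cordycepin and 0.36 with serum, so smaller changes were mostly not detectable with 2 or 3 arrays a group.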
